A study of Mus musculus with 7 samples.

Results

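The genes described here build the 2 sides of the chemical synapse: 21 presynaptic genes of synaptic vesicles, their fusion machinery and the active zone, and 11 postsynaptic genes of the scaffold and signalling proteins under the receptors. The 32 members were chosen by name and were found through the gene name that the array files give to each probe. All 32 were on the array and passed the filter on dim probes, out of 23301 gene names tested and 31093 on the array. They were measured in brain tissue of male C57BL/6N mice on 3 arrays labelled KO day 3 (Pla2g2e -/-, day 3 after 60 min of middle cerebral artery occlusion), 3 labelled WT day 3 (wild type, the same occlusion and day) and 1 labelled WT sham (wild type, sham-operated, with no day given). Transient middle cerebral artery occlusion is a stroke model in which the main artery of 1 hemisphere is blocked and then reopened, and Pla2g2e encodes a secreted phospholipase A2. The labels give neither the mice's age, nor which part of the brain was taken, nor which part of Pla2g2e was deleted, and nothing in them says whether each replicate is a mouse of its own. P-values therefore cover the spread between these samples only, and that spread may be technical.

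At a chemical synapse, vesicles filled with transmitter dock at the active zone of the presynaptic ending. Calcium entry then makes a vesicle SNARE protein (synaptobrevin) and the membrane SNARE proteins (syntaxin and SNAP-25) pull the membranes together, under the control of synaptotagmins, complexins and Munc13. On the other side, a dense layer of scaffold proteins (the PSD-95 family, GKAP, Shank and Homer) holds glutamate receptors in place next to the calcium-activated kinase CaMKII. Most of these genes are expressed mainly in neurons, and in bulk tissue fewer cells of a type and less RNA per cell cannot be told apart.

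An array of 60-base probes, in 1 colour, was run per sample. Levels are log2 signals from which the array's own 75th percentile was subtracted, so that 0 is the level of that percentile. A pair of members need their probes shown before the values can be read. Homer1 is measured by probes for a short (S) and a long (L) transcript variant, as the array design names them, and 1 coding probe of each is printed in lower case, from the plus strand of mm9. The short one lies at chr13:94126009-94126068 and the long one at chr13:94157507-94157566.
Homer1 S: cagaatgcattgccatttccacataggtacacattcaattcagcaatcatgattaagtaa
Homer1 L: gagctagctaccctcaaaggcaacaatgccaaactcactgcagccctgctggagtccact
The brightest probe of Cplx2 is placed not on chromosome 13, with the gene itself, but at chr12:99117899-99117958 (plus strand, mm9). It consists of A and G alone in all 60 bases, as do 23 probes of the whole array, this one included. Its first 30 bases are shown with each GGA triplet in capitals.
Cplx2 on chromosome 12: aGGAGGAGGAGGAGGAGGAGGAGGAGGAgg
By the rule of the brightest probe, Cplx2 is represented by the repeat on chromosome 12. The readings of its own probe are given with those of the complexins and in the comparisons with sham.

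Several facts of the whole set of arrays touch every value below. The array labelled WT day 3 replicate 1 stood apart: its correlation with each of the other arrays over all features was 0.857 to 0.916, against 0.968 to 0.991 between the other 6. Spp1, a phagocyte gene of injured brain, read -2.66 on it and 4.84 to 5.65 on the other 6 arrays, and Lgals3, another, read -3.17 on it and 5.77 to 6.27 on the other 6. The array labelled sham was among those with high injury genes (Spp1 at 5.33), so that these 2 arrays go against what their labels say of occlusion. The targeted gene did not separate the arrays by genotype either. Pla2g2e read -4.44, -5.83 and -4.97 on the arrays labelled KO, against -6.89, -3.68 and -3.36 on those labelled WT day 3 and -4.69 on sham. Without WT day 3 replicate 1 all KO values lay below the other WT day 3 values, as in 5.33% of all features, while sham still lay among the KO values. The labels are used as they stand. The counts and medians of each comparison are given with and without WT day 3 replicate 1. Most differences between KO and WT printed for single genes are given in both ways too. For some members only the readings on each array are described. The 3 KO arrays lay on 1 slide and the 4 others on another, and a slide effect and a genotype effect therefore cannot be told apart. On each array 31177 to 34029 of 43020 spots were well above background, and no spot was saturated.

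All 32 synaptic genes had their highest value of the 7 arrays on WT day 3 replicate 1, which was so for 43.9% of all features. The excess over the next highest array was 0.38 (Cplx2 by the repeat probe, with 1.73 on its own probe) to 3.53 (Nrgn) on the log2 scale. Over the other 6 arrays a gene's range was 0.08 (Shank3) to 2.89 (Sv2b) on the log2 scale, beside a median range of 0.65 over all features. Within those 6 arrays the highest value came from KO replicate 2 or sham in 27 of 32 genes (36.9% of all features) and the lowest from KO replicate 1 or 3 in 26 of 32 (35.3% of all features).

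**Figure D1:**
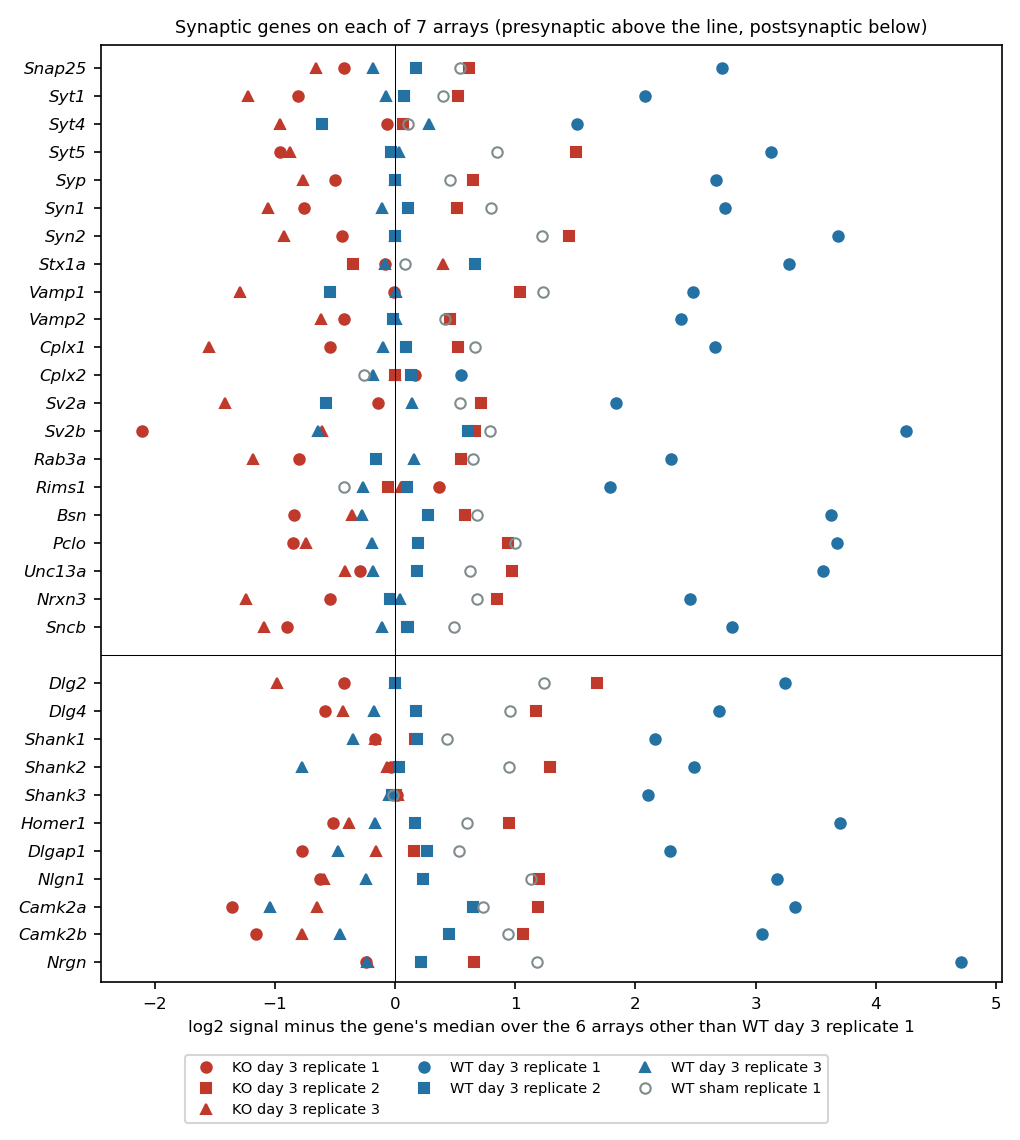
Level of each synaptic gene on each of the 7 arrays (x axis, log2 signal minus the gene's own median over the 6 arrays other than WT day 3 replicate 1), with presynaptic genes above the line and postsynaptic genes below; red is KO day 3, blue WT day 3 and open grey circles WT sham, and the symbol shape gives the replicate. The blue circles of WT day 3 replicate 1 lie to the right of all other arrays in all 32 genes, and the red squares of KO replicate 2 lie to the right of the other KO arrays in 28.

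For the genotype comparison, KO against WT at day 3, no synaptic gene passed the test (0 of 32; 0 of 23301 features, 0% of all tested; limma, adjusted p under 0.05), and none had an unadjusted p under 0.05, against 196 of all features (0.841%). The point estimate was lower in KO in 32 of 32 genes, as in 53.1% of all features. The median difference was -1.15 over the 21 presynaptic genes (range -2.08 to -0.11) and -0.99 over the 11 postsynaptic genes (range -1.50 to -0.19), beside -0.03 over all features. Without WT day 3 replicate 1 the median difference was -0.20 over the presynaptic genes, with 16 lower and 5 higher, and 0.03 over the postsynaptic genes, with 4 lower and 7 higher. Shank2 is counted among the higher ones, but its remaining WT readings were not well above background. Again no member was called (0 of 32; 0% of all features), and none had an unadjusted p under 0.05 (1.63% of all features). The smallest p of any member was that of Sncb (limma, unadjusted p = 0.121, adjusted p = 0.862). In none of the 32 genes were all KO arrays below all WT day 3 arrays, while this held for 2.65% of all features and a gap in either direction for 4.53%. Leaving out WT day 3 replicate 1, the KO arrays were all above the other WT arrays in Shank3 alone (1 of 32; 6.31% of all features) and all below them in none (5.33% of all features).

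**Figure D2:**
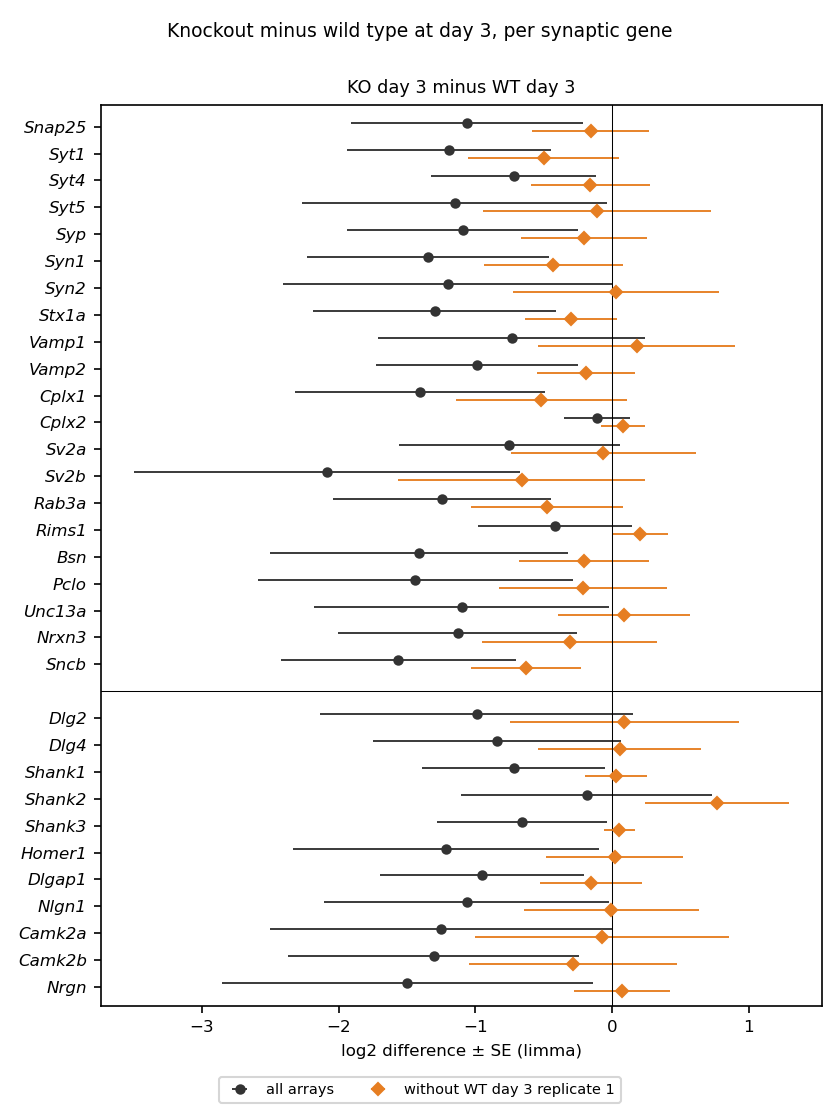
Difference of KO minus WT at day 3 for each synaptic gene (x axis, log2 difference, with bars of 1 SE from limma), from all arrays (black circles, 3 against 3) and without WT day 3 replicate 1 (orange diamonds, 3 against 2). All 32 black circles lie below 0, while the orange diamonds lie on both sides of it, 20 below and 12 above.

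The SNARE genes of membrane fusion come first. Snap25 encodes the membrane SNARE SNAP-25 and was measured at chr2:136607709-136607768 on mm9. It read 1.43, 2.47 and 1.20 on the KO arrays, against 4.58, 2.04 and 1.68 on the WT day 3 arrays and 2.40 on the sham array. It averaged 1.70 ± 0.68 in KO and 2.76 ± 1.58 in WT (SD, n = 3 each). The KO values and those of WT replicates 2 and 3 overlapped, and the difference between KO and WT was -1.06 ± 0.85 (SE) over the full set of arrays (limma, adjusted p = 0.862) and -0.16 ± 0.43 without WT replicate 1. Vamp2, the main vesicle SNARE of the forebrain, read 1.15, 2.03 and 0.95 on the KO arrays, against 3.95, 1.56 and 1.58 on the WT day 3 arrays and 1.99 on the sham array. Its order of arrays was like that of Snap25, with KO replicate 2 and sham above the other arrays except WT replicate 1. Vamp1, the synaptobrevin prominent in the spinal cord and brainstem, read -1.22, -0.16 and -2.50 on the KO arrays, against 1.27, -1.75 and -1.20 on the WT day 3 arrays and 0.02 on the sham array. Vamp1 was lowest on KO replicate 3 and next lowest on WT replicate 2, so the groups were interleaved. Stx1a, the syntaxin partner of SNAP-25, read -2.03, -2.30 and -1.55 on the KO arrays, against 1.33, -1.28 and -2.03 on the WT day 3 arrays and -1.86 on the sham array. Unlike the other SNARE genes it was not highest on KO replicate 2 among the KO arrays but lowest there. As in those genes, the sham array lay within the range of the day 3 arrays.

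The complexins, small proteins that clamp and promote fusion at the assembled SNARE complex, gave unlike readings from different probes. Cplx1 read 1.30, 2.37 and 0.29 on the KO arrays, against 4.50, 1.94 and 1.74 on the WT day 3 arrays and 2.50 on the sham array, with a difference between KO and WT of -1.41 ± 0.91 over the full set of arrays and -0.52 ± 0.63 without WT replicate 1 (SE). The repeat probe of Cplx2 printed above read 5.39, 5.23 and 5.23 on the KO arrays, against 5.78, 5.36 and 5.05 on the WT day 3 arrays and 4.97 on the sham array. It had a difference of -0.11 ± 0.24 (SE; limma, adjusted p = 0.882) and of 0.08 ± 0.16 without WT replicate 1. The probe of Cplx2 on its own chromosome read 2.40, 3.79 and 2.56 on the KO arrays, against 5.58, 3.78 and 2.64 on the WT day 3 arrays and 3.85 on the sham array. As for Cplx1, sham and KO replicate 2 came after WT replicate 1, and KO replicates 1 and 3 were lowest, with a difference of -1.08 ± 0.82 (SE; limma, adjusted p = 0.862) and of -0.29 without WT replicate 1.

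Synaptotagmins sense calcium or bind membranes during release. Syt1, the calcium sensor of fast release, read 2.69, 4.02 and 2.27 on the KO arrays, against 5.57, 3.57 and 3.42 on the WT day 3 arrays and 3.89 on the sham array. KO replicates 1 and 3 were below all other arrays, and KO replicate 2 was above WT replicates 2 and 3. The difference was -1.19 ± 0.75 (SE; limma, adjusted p = 0.862) and -0.50 ± 0.55 without WT replicate 1. Syt5, of the same family, read 0.08, 2.54 and 0.17 on the KO arrays, against 4.17, 1.00 and 1.07 on the WT day 3 arrays and 1.89 on the sham array. Syt4, a family member linked to peptide vesicles, read -0.60, -0.46 and -1.49 on the KO arrays, against 0.99, -1.13 and -0.25 on the WT day 3 arrays and -0.42 on the sham array. Here WT replicate 2 was below KO replicates 1 and 2, and sham lay between the day 3 arrays.

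Next come the genes of the vesicle membrane and of vesicle tethering. Sv2b, a vesicle glycoprotein measured at chr7:82260188-82260247, had the largest difference of all members, -2.08 ± 1.41 (SE; limma, adjusted p = 0.862), a mean 4.24-fold lower in KO. Its values were -4.82, -2.05 and -3.32 on the KO arrays, against 1.53, -2.12 and -3.36 on the WT day 3 arrays and -1.93 on the sham array. The Sv2b mean was -3.40 ± 1.39 in KO and -1.31 ± 2.54 in WT (SD, n = 3 each). KO replicate 2 was above WT replicate 2 in spite of this difference, and without WT replicate 1 it was -0.66 ± 0.90. Its relative Sv2a, the binding site of the antiepileptic drug levetiracetam, read 0.29, 1.15 and -0.98 on the KO arrays, against 2.28, -0.14 and 0.58 on the WT day 3 arrays and 0.98 on the sham array. Syp, the vesicle protein synaptophysin often used as a synapse marker, read 0.76, 1.91 and 0.49 on the KO arrays, against 3.92, 1.25 and 1.25 on the WT day 3 arrays and 1.71 on the sham array. WT replicates 2 and 3 were alike to 2 decimals, while the KO arrays spread to both sides of them. Synapsins tie vesicles to the reserve pool. Syn1 read 0.62, 1.88 and 0.31 on the KO arrays, against 4.12, 1.48 and 1.26 on the WT day 3 arrays and 2.17 on the sham array, and Syn2 read 0.42, 2.31 and -0.06 on the KO arrays, against 4.55, 0.86 and 0.87 on the WT day 3 arrays and 2.09 on the sham array. In both, KO replicates 1 and 3 were below WT replicates 2 and 3 and KO replicate 2 above them.

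Rab3a, the small GTPase of vesicles near release, read 2.46, 3.81 and 2.07 on the KO arrays, against 5.55, 3.10 and 3.41 on the WT day 3 arrays and 3.90 on the sham array. Its difference was -1.24 ± 0.80 with all arrays and -0.48 ± 0.56 without WT replicate 1 (SE). Sncb encodes beta-synuclein and had the smallest p of all members; its probe has no position in the files. It read -4.84, -3.84 and -5.03 on the KO arrays, against -1.13, -3.83 and -4.04 on the WT day 3 arrays and -3.45 on the sham array. KO replicates 1 and 3 were below every other array, but KO replicate 2, at -3.84, lay between WT replicates 2 and 3. The difference of -1.56 ± 0.86 became -0.63 ± 0.40 without WT replicate 1 (SE), short of the threshold in both.

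The active zone is the protein meshwork where vesicles dock. Its giant scaffolds Bsn (bassoon) and Pclo (piccolo) had differences of -1.41 ± 1.09 and -1.44 ± 1.15 with all arrays, and of -0.20 ± 0.47 and -0.21 ± 0.61 without WT replicate 1 (SE). Bsn read -1.86, -0.43 and -1.37 on the KO arrays, against 2.61, -0.74 and -1.30 on the WT day 3 arrays and -0.33 on the sham array. Pclo read -1.59, 0.21 and -1.47 on the KO arrays, against 2.94, -0.55 and -0.93 on the WT day 3 arrays and 0.26 on the sham array. WT replicate 1 was above the next highest array by 2.94 in Bsn and 2.67 in Pclo on the log2 scale. Unc13a, the Munc13 protein that primes vesicles, read -6.00, -4.73 and -6.12 on the KO arrays, against -2.14, -5.52 and -5.89 on the WT day 3 arrays and -5.08 on the sham array. Rims1, which links vesicles to calcium channels, read -2.89, -3.31 and -3.20 on the KO arrays, against -1.47, -3.15 and -3.53 on the WT day 3 arrays and -3.68 on the sham array. By the brightest Rims1 probe sham was the lowest array and KO replicate 1 the highest after WT replicate 1. Its difference of -0.42 ± 0.56 was 0.21 ± 0.21 without WT replicate 1 (SE). The other Rims1 probe, also well above background on all 7 arrays, had sham next after WT replicate 1 and KO replicate 1 lowest. That probe read -4.12, -3.97 and -3.84 on the KO arrays, against -1.61, -3.71 and -3.88 on the WT day 3 arrays and -3.64 on the sham array. Nrxn3, the neurexin that spans the cleft to bind neuroligins, read 0.57, 1.95 and -0.13 on the KO arrays, against 3.56, 1.07 and 1.15 on the WT day 3 arrays and 1.79 on the sham array.

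On the postsynaptic side the PSD-95 family anchors glutamate receptors. Dlg4, which encodes PSD-95 itself and was measured at chr11:69858757-69858816, read -0.57, 1.19 and -0.42 on the KO arrays, against 2.70, 0.18 and -0.16 on the WT day 3 arrays and 0.97 on the sham array. The Dlg4 mean was 0.07 ± 0.97 in KO and 0.91 ± 1.56 in WT (SD, n = 3 each). Dlg2, encoding PSD-93, read -2.17, -0.06 and -2.72 on the KO arrays, against 1.50, -1.74 and -1.74 on the WT day 3 arrays and -0.50 on the sham array. In both genes KO replicate 2 was above sham and above WT replicates 2 and 3, while KO replicates 1 and 3 were the lowest arrays. The differences between KO and WT were -0.84 ± 0.91 and -0.99 ± 1.14 (SE), and 0.05 ± 0.60 and 0.09 ± 0.84 without WT replicate 1. Dlgap1, the GKAP protein that joins PSD-95 to Shank, read -1.55, -0.62 and -0.94 on the KO arrays, against 1.51, -0.52 and -1.25 on the WT day 3 arrays and -0.25 on the sham array. Nlgn1, the neuroligin of excitatory synapses, read -3.50, -1.68 and -3.47 on the KO arrays, against 0.30, -2.64 and -3.11 on the WT day 3 arrays and -1.75 on the sham array. KO replicates 1 and 3 of Nlgn1 were alike and lowest, and the difference without WT replicate 1 was within 0.01 of 0, with an SE of 0.64.

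The Shank genes encode the layer of the scaffold farthest from the membrane. Shank3, the gene deleted in the human Phelan-McDermid syndrome, was measured at chr15:89390449-89390508 by a probe with 10 spots per array. It read -0.66, -0.66 and -0.65 on the KO arrays, against 1.43, -0.70 and -0.72 on the WT day 3 arrays and -0.69 on the sham array. By this probe the 6 arrays other than WT replicate 1 lay within 0.08 of each other, the narrowest range of any member. The SD between single spots of the same array was 0.0380 to 0.0664, while the values are means of the spots. The other Shank3 probe, well above background on all 7 arrays, had a range of 1.11 over the same 6 arrays and was lowest on sham, at -6.28. Shank1 read -4.11, -3.78 and -4.11 on the KO arrays, against -1.78, -3.76 and -4.29 on the WT day 3 arrays and -3.51 on the sham array, and its difference of -0.72 ± 0.67 was 0.03 ± 0.22 without WT replicate 1 (SE). Shank2 was well above background on 4 of 7 arrays, KO replicates 2 and 3, WT replicate 1 and sham. Its values of -6.67, -5.35 and -6.70 on the KO arrays, against -4.15, -6.60 and -7.41 on the WT day 3 arrays and -5.68 on the sham array therefore include background readings, and its difference of -0.19 ± 0.92 (SE) rests on them. WT replicates 2 and 3 are both background readings, so its difference without WT replicate 1 rests on background in WT wherever it is counted or drawn.

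Homer1 links Shank to metabotropic glutamate receptors, and its short variant is known as an activity-induced form that breaks this link. The brightest probe is another probe of the long variant, at chr13:94174815-94174874, and read -1.77, -0.31 and -1.64 on the KO arrays, against 2.44, -1.09 and -1.43 on the WT day 3 arrays and -0.66 on the sham array. The difference was -1.22 ± 1.12 (SE; limma, adjusted p = 0.862) and 0.02 ± 0.50 without WT replicate 1. The long probe printed above read -3.01, -1.92 and -3.21 on the KO arrays, against 0.83, -2.86 and -2.94 on the WT day 3 arrays and -2.24 on the sham array. The short probe printed above read -4.33, -3.74 and -4.39 on the KO arrays, against -1.005, -4.51 and -4.20 on the WT day 3 arrays and -4.07 on the sham array. All 5 probes of both variants had WT replicate 1 as their highest array and KO replicate 2 next. WT replicate 2 was below WT replicate 3 in the 3 probes assigned to the short variant and above it in the 2 assigned to the long one. The other probes assigned to the short variant lie upstream of the printed one, at chr13:94116595-94116654 and chr13:94125924-94125983. Whether each probe reads 1 variant alone was not checked, and the difference between the variants was not tested. With all arrays the probes' differences between KO and WT ran from -1.22 to -0.92.

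**Figure D3:**
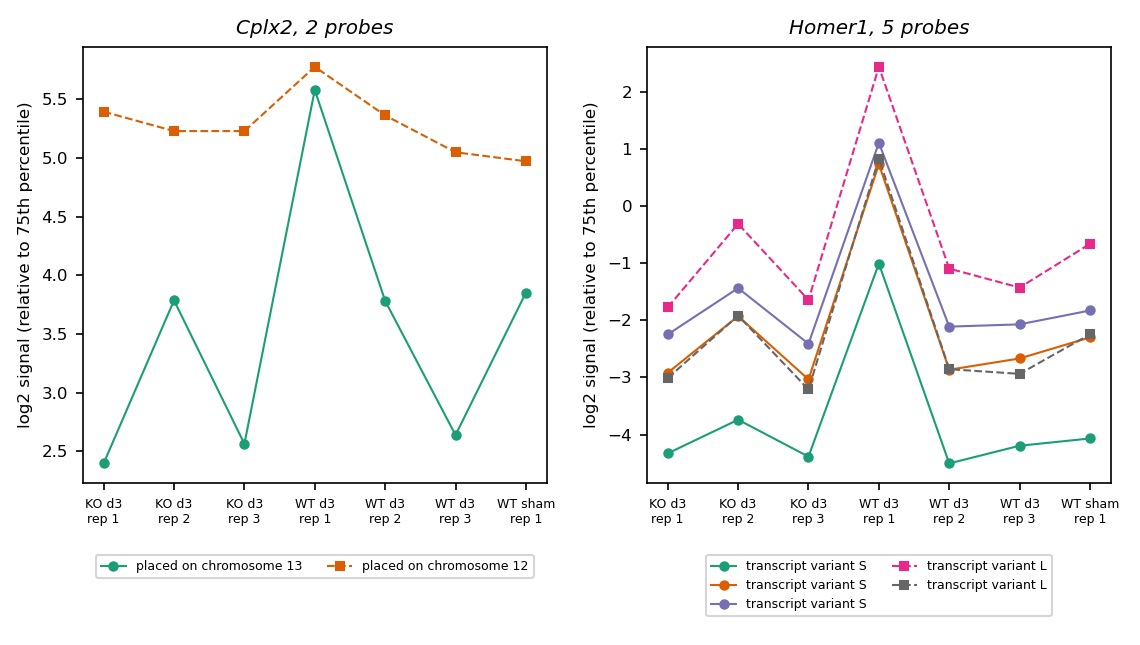
Level of the brightest probe of Cplx2 and of its own probe (left, labelled by the chromosome on which the array design places them) and Homer1 (right, 5 probes, labelled by transcript variant) on each of the 7 arrays (x axis; y axis, log2 signal relative to the array's 75th percentile). The Cplx2 probe on chromosome 13 ranges from 2.40 to 5.58 while the repeat probe on chromosome 12 ranges from 4.97 to 5.78, and the 5 Homer1 probes are all highest on WT day 3 replicate 1.

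CaMKII and neurogranin are the calcium-signalling proteins of this compartment. Camk2b, the beta subunit of CaMKII, read 1.47, 3.69 and 1.85 on the KO arrays, against 5.68, 3.08 and 2.17 on the WT day 3 arrays and 3.56 on the sham array. Camk2a, the alpha subunit that dominates in forebrain excitatory neurons, read -1.86, 0.69 and -1.15 on the KO arrays, against 2.82, 0.14 and -1.54 on the WT day 3 arrays and 0.23 on the sham array. Within each genotype the Camk2a arrays were far apart, and the difference of -1.25 ± 1.25 was -0.08 ± 0.93 without WT replicate 1 (SE). Nrgn, which encodes the calmodulin-binding protein neurogranin of forebrain spines, was measured at chr9:37352694-37352753. It read -1.26, -0.36 and -1.24 on the KO arrays, against 3.69, -0.80 and -1.26 on the WT day 3 arrays and 0.16 on the sham array. The Nrgn mean was -0.95 ± 0.51 in KO and 0.55 ± 2.73 in WT (SD, n = 3 each). It had both the largest postsynaptic difference, -1.50 ± 1.36, and, without WT replicate 1, a value of 0.07 ± 0.35 (SE).

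The spread within KO was a further part of the pattern. KO replicate 2 was above KO replicates 1 and 3 in 28 of 32 genes, as in 33.7% of all features. The median excess of KO replicate 2 over the mean of the other 2 KO arrays was 1.42 over the presynaptic genes and 1.40 over the postsynaptic genes on the log2 scale. The KO array that was lowest of the 6 was counted on each side of the synapse. Among presynaptic genes KO replicate 3 was lowest in 14 of 21 and KO replicate 1 in 4, while among postsynaptic genes KO replicate 1 was lowest in 7 of 11 and KO replicate 3 in 1. Over all features KO replicate 3 was lowest in 20.6% and KO replicate 1 in 14.7%. The median of KO replicate 3 minus KO replicate 1 was -0.27 over the presynaptic and 0.03 over the postsynaptic genes, beside -0.04 over all features. Homer1 counts for KO replicate 1 by its brightest probe, while its other probes read lower on KO replicate 3 than on KO replicate 1. Pclo also counts for KO replicate 1 by its brightest probe, while its other probes were lowest on KO replicate 3. The lowest of the 6 arrays differed between probes in Cplx2, Nlgn1, Nrxn3, Rims1, Shank1 and Shank3 as well, so these counts depend on the probe used. The other presynaptic genes had KO replicate 3 lowest in 33 of 45 and KO replicate 1 in 5, and the other postsynaptic genes had them lowest in 15 and 13 of 33. These counts describe single arrays of 1 group and were not tested.

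For the comparisons with sham, which rest on 1 sham array whose spread is taken to equal that of the day 3 arrays, no synaptic gene passed the test in KO (0 of 32; 0.0129% of 23290 features) or in WT (0 of 32; 0.0129%). None had an unadjusted p under 0.05 in KO against sham (1.32% of all features) or in WT against sham (1.13%). Without WT replicate 1 the KO comparison with sham called no member either (0.0343% of all features), and none had an unadjusted p under 0.05 (4.93% of all features). Both comparisons share the sham array. KO and sham differ in genotype, occlusion and slide at once, and effects of these cannot be told apart. KO was lower than sham in 29 of 32 genes, as in 49.6% of all features, with a median difference of -0.90 over the presynaptic and -0.90 over the postsynaptic genes, beside 0.00 over all features. The 3 exceptions were Rims1 at 0.54 ± 0.80, Cplx2 at 0.31 ± 0.34 and Shank3 at 0.03 ± 0.87 (SE). Without WT replicate 1, an array of neither group that enters the shared estimate of the spread, these SEs were 0.26, 0.20 and 0.15. All 3 KO arrays were below the sham array in 12 of 32 genes, against 25.8% of all features. These exceptions are by the brightest probes. The own probe of Cplx2 gave -0.94, the other probe of Rims1 -0.33 and the other probe of Shank3 0.87.

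Among the presynaptic genes the largest KO differences from sham were those of Sv2b, -1.47 ± 2.00, Vamp1, -1.32 ± 1.38, and Syn1, -1.23 ± 1.25 (SE). Without WT replicate 1 these SEs were 1.14, 0.91 and 0.64. Among the postsynaptic genes the largest were those of Camk2b, -1.23 ± 1.51, Dlg2, -1.15 ± 1.62, and Nlgn1, -1.14 ± 1.47 (SE). Without WT replicate 1 their SEs were 0.96, 1.06 and 0.81. Nrgn gave -1.12, with an SE of 1.92 with all arrays and 0.44 without WT replicate 1. In Syn1 all KO arrays, at 0.62, 1.88 and 0.31, were below sham at 2.17, whereas in Camk2b, Dlg2 and Nlgn1 KO replicate 2 was above sham. The smallest adjusted p of any member was 1.00 with all arrays and 0.712 without WT replicate 1 (limma).

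The WT comparison with sham turned its sign on 1 array. With all arrays WT was higher than sham in 26 of 32 genes, as in 54.1% of all features, with a median difference of 0.30 over the presynaptic and 0.16 over the postsynaptic genes, beside 0.03 over all features. Without WT replicate 1 it was lower in 29 of 32 genes, with medians of -0.65 and -0.94, beside 0.01 over all features. Both remaining WT arrays were below sham in 28 of 32 genes, all but Cplx2, Rims1, Stx1a and Syt4, against 40.4% of all features. Cplx2 is among these 4 by its repeat probe only, since on its own probe WT replicates 2 and 3, at 3.78 and 2.64, were below sham at 3.85. Likewise Rims1 is among them by its brightest probe only. On its other probe WT replicates 2 and 3, at -3.71 and -3.88, were below sham at -3.64. Still no member was called (limma; 0.0258% of all features without WT replicate 1), and none had an unadjusted p under 0.05 (4.52% of all features). Without it Vamp1 gave -1.50 ± 0.96, against -0.58 ± 1.38 with all arrays (SE). Shank2 is counted among the lower genes, but WT replicates 2 and 3 were not well above background for it. Nrgn gave -1.19 ± 0.47 without WT replicate 1 and 0.38 ± 1.92 with it (SE), and its unadjusted p of 0.0552 without it was the smallest (limma, adjusted p = 0.768). Stx1a had the largest positive difference with all arrays, 1.20 ± 1.26, and 0.20 ± 0.45 without WT replicate 1 (SE).

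**Figure D4:**
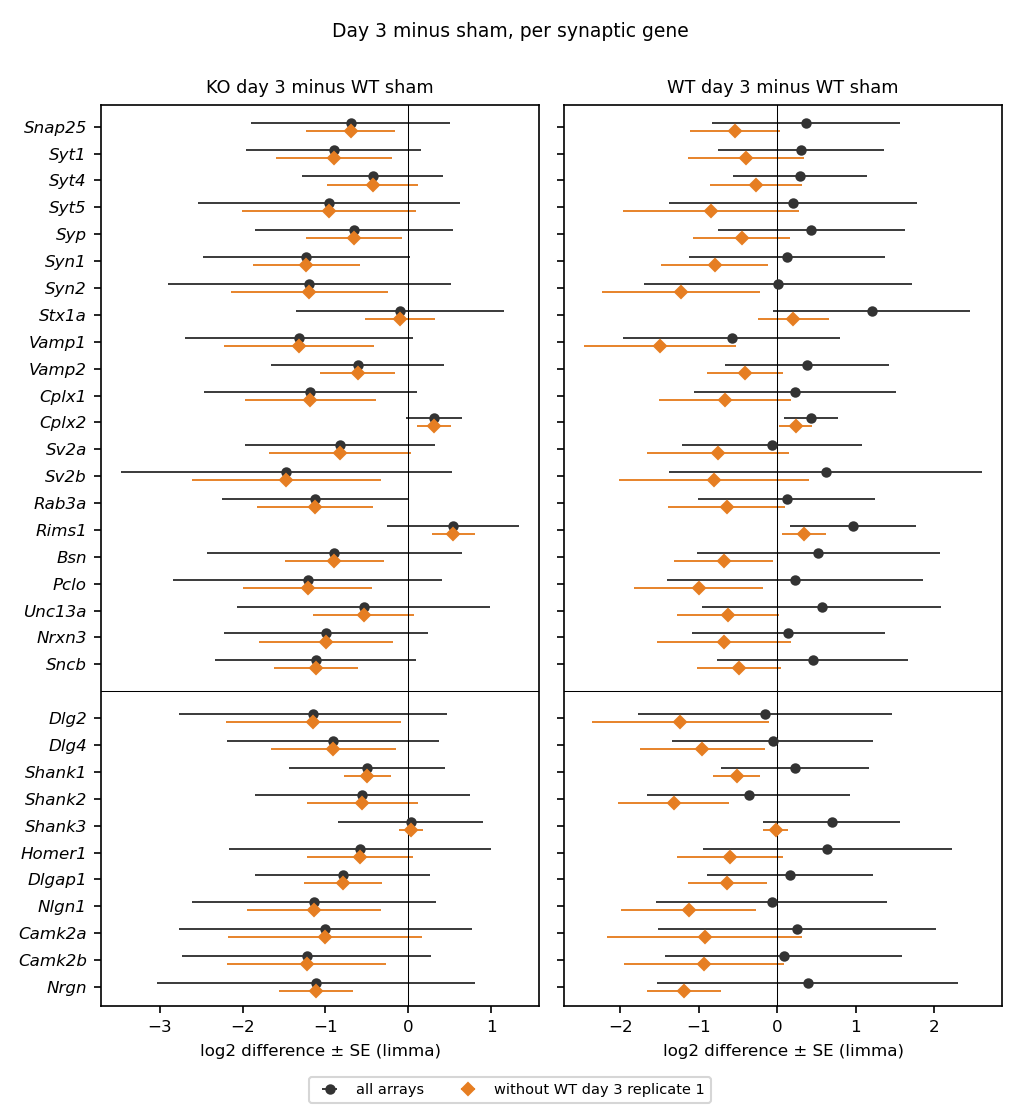
Difference of KO day 3 minus WT sham (left) and WT day 3 minus WT sham (right) for each synaptic gene (x axis, log2 difference, with bars of 1 SE from limma), from all arrays (black circles) and without WT day 3 replicate 1 (orange diamonds, where the KO values stay the same and their SE narrows). In the right panel the black circles lie above 0 in 26 of 32 genes and the orange diamonds below 0 in 29 of 32; both panels use the same single sham array.

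Other genes of the same compartments were read from lists of their own. Of 45 other presynaptic genes 43 had a lower estimate in KO than in WT, with a median difference of -1.01. Of 33 other postsynaptic genes 32 did, with a median of -0.80. Over all features 53.1% were lower, with a median of -0.03. None of either list passed the test (0% of all features). The largest was Slc17a7, the vesicular glutamate transporter of cortical excitatory neurons, at -2.74 ± 1.39 (SE; limma, adjusted p = 0.862), and at -1.50 ± 1.12 without WT replicate 1. It read -5.70, -5.80 and -3.26 on the KO arrays, against 0.29, -2.21 and -4.64 on the WT day 3 arrays and -3.53 on the sham array. Its KO replicate 2, unlike that of most members, was the lowest of the KO arrays. Slc17a6, the other main vesicular glutamate transporter, had a difference of -1.50 ± 0.93, and Rab3b, a relative of Rab3a, of -1.06 ± 0.54 (SE). Without WT replicate 1 these were -0.55 ± 0.57 and -0.59 ± 0.42. Among the postsynaptic genes Kalrn, an exchange factor of dendritic spines, had -1.75 ± 1.14, and Lrrtm1, an adhesion protein of excitatory synapses, -1.61 ± 1.14 (SE). Without WT replicate 1 Kalrn gave -0.55 ± 0.64 and Lrrtm1 -0.43 ± 0.68. Homer3, a relative of Homer1 expressed in cerebellar Purkinje cells, was the exception, at 0.50 ± 0.35 (SE), and WT replicate 1 was its lowest array, without which it gave 0.14 ± 0.14. Without WT replicate 1 the medians of the presynaptic and postsynaptic lists were -0.13 and -0.01, with 35 of 45 and 18 of 33 genes lower in KO.

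Markers of other cell parts and cell types were read on the same arrays. All 15 genes of the neuronal cell body and axon were highest on WT replicate 1 (43.9% of all features). The list medians were 1.67, 2.46 and 0.56 on the KO arrays, against 4.07, 1.98 and 1.75 on the WT day 3 arrays and 2.59 on sham. Nefm and Nefl, the neurofilament genes of axons, had differences of -1.80 ± 0.84 and -1.52 ± 0.82 between KO and WT (SE; limma, adjusted p = 0.862 each), and of -1.03 ± 0.63 and -0.74 ± 0.57 without WT replicate 1. Of 12 microglia and macrophage markers 11 were lowest on WT replicate 1 (34.4% of all features). The median of the list was 1.26 there, against 4.45 to 4.78 on the other 6 arrays. All 10 endothelial and pericyte markers were also lowest there, with a median of -0.64 against 1.13 to 1.85. Astrocyte marker medians ran from 1.44 to 3.13 and oligodendrocyte marker medians from 1.85 to 3.40, and neither median had its extreme on WT replicate 1. Single astrocyte markers went both ways there, with 4 of 10 highest and 2 of 10 lowest on that array. Vim read 0.94 on it and 5.11 to 5.51 on the other 6, and Slc1a2 3.33 on it and 1.08 to 1.80 on the other 6. Among the 6 other arrays KO replicate 2 and sham, the arrays highest in synaptic genes, were also highest in the astrocyte medians (3.13 and 3.04) and oligodendrocyte medians (3.40 and 3.38) and lowest in the endothelial medians (1.16 and 1.13). Red blood cell medians, over the 5 markers measured of 6, were -1.38, -3.53 and -2.98 on the KO arrays, against -5.40, -3.20 and -3.07 on the WT day 3 arrays and -5.82 on sham. The part of these cell types in the synaptic values was not tested.

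**Figure D5:**
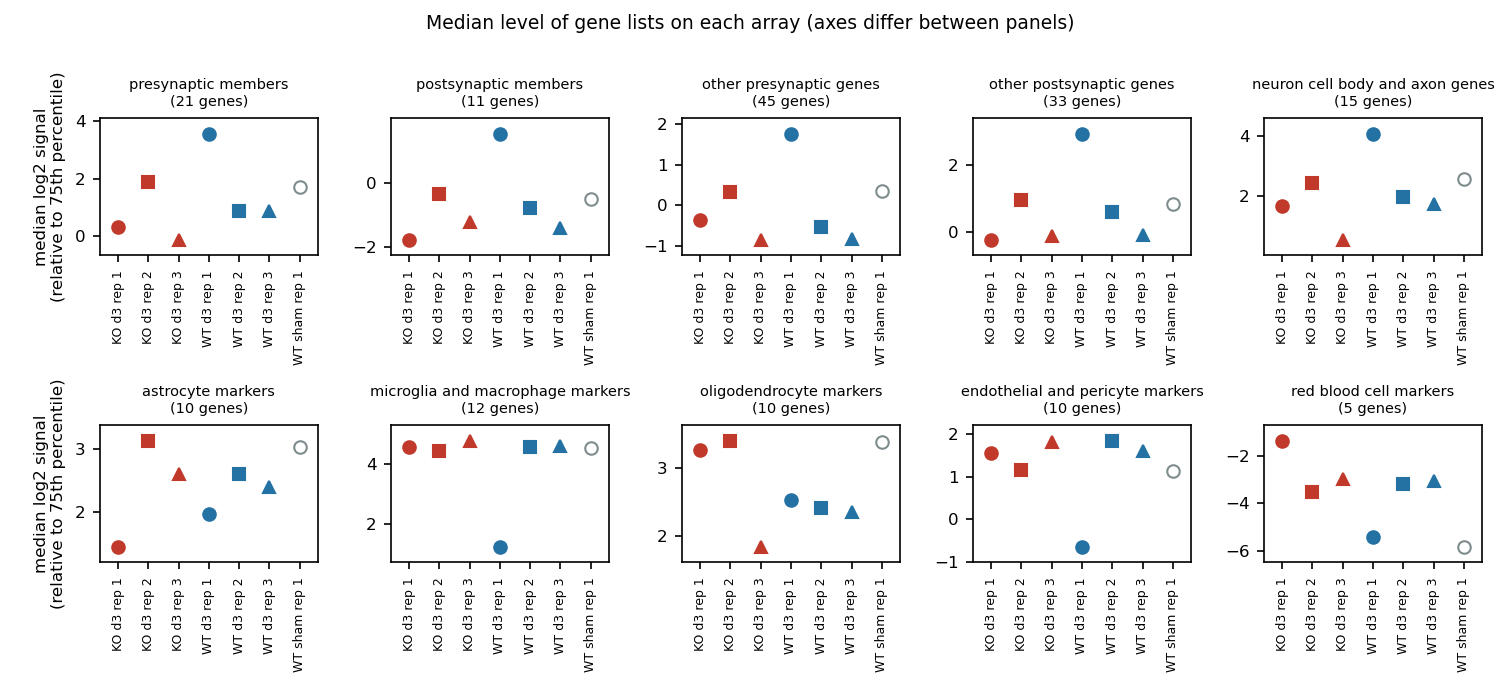
Median level of the synaptic members (upper left, presynaptic and postsynaptic apart), of other synaptic and neuronal genes and of cell type markers on each of the 7 arrays (y axis, log2 signal relative to the array's 75th percentile, with a scale of its own in each panel; red KO day 3, blue WT day 3, open grey WT sham). WT day 3 replicate 1 is highest in all 5 neuronal panels and lowest in the microglial and endothelial panels.

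The promoters of the members were read for motifs of a repressor and an activator known for neuronal genes. RefSeq promoters on GRCm38.p6 (250 bases before to 50 after the start) matched 25 of the 32 members with 40 promoters. The left arm of RE1, the element bound by the neuronal silencer REST, was searched on both strands as TTCAGCACC. It stood in 3 of 40 member promoters (7.5%; Nlgn1, Syn1 and Unc13a), against 0.371% of 32851 promoters. The cAMP response element TGACGTCA, the same on both strands, stood in 1 (2.5%; Syn1), against 1.79%. Syn1 is shown because it holds both, with the motifs in capitals. The stretch is the 250 bases before the start, chrX:20920919-20921168 on the minus strand, with the RE1 arm at base 19 and the cAMP element at base 92.
Syn1: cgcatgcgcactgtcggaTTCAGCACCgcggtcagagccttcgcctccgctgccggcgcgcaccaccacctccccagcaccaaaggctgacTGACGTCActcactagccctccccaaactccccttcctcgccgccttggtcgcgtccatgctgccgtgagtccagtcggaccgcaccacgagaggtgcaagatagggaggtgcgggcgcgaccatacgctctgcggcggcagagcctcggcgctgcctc
These matches describe letters in a window and overlap no other motif searched. The 3 genes with the RE1 arm had differences between KO and WT of -1.06 ± 1.04 (Nlgn1), -1.35 ± 0.88 (Syn1) and -1.10 ± 1.08 (Unc13a) with all arrays (SE). Without WT replicate 1 they were within 0.01 of 0 (Nlgn1), -0.43 ± 0.51 (Syn1) and 0.09 ± 0.48 (Unc13a).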

How the data were processed

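Brain RNA was measured on 7 arrays in 3 groups (3 KO day 3, 3 WT day 3, 1 WT sham), placed by their titles. The deposited spot intensities come from Agilent Feature Extraction (version 11.5.1.1 in the submitters' processing notes). Per the file headers, the processed intensity was background-subtracted and corrected for trends within each array. The deposited value table holds a linear ratio, found to be the processed signal divided by the array's 75th percentile (within 0.0428%; column medians 0.0863 to 0.0976), and served as an alternative. Its scale, centring and direction were thereby settled.

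Here the log2 processed signal minus the array's 75th percentile over non-control spots was used. Spots with an outlier flag (91 to 147 per array) were left out, spots of a probe were averaged, and each gene name took the brightest of its probes that were well above background on at least 3 of 7 arrays. A 3-group model was fitted by limma 3.58.1 under R 4.3.3 (lmFit, then eBayes, 4 residual and 1.68 prior degrees of freedom), and its two-sided p-values were adjusted over every feature tested by the Benjamini-Hochberg method (threshold 0.05). Differences carry limma's SE. An exact permutation test of 3 against 3 arrays cannot go below p = 0.1 and was not used. Alternatives were background correction, normalization, centring, the filter on dim probes, the probe rule, array weights, the replicate block, subsets of arrays and leaving out each array. Plots used Python 3.11.15 and matplotlib 3.10.9.

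Members, gene lists and tests were chosen with earlier results of these data known. Values on every array were planned for the members with the largest and smallest differences and the smallest p in each class, and up to 4 genes with the smallest p for each other list; further members are given on every array as well. Further probes of Cplx2 are not reported here. Positions of probes come from the array design, on mm9.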

Additional observations from a re-analysis of the deposited data

How the results depend on the processing

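No member passed the adjusted threshold under any setting that was run, so all directions below are of uncalled differences; 1460 recomputed values of single members kept theirs and 140 did not. The number of features called was 0 in KO against WT (2 with array weights, which gave WT replicate 1 a weight of 0.0716). It was 3 in KO against sham, and 0 with normexp background correction, quantile normalization, median centring, probes above background on all arrays, the replicate block, or the compared groups alone with WT replicate 1 left out, and 8 with array weights. It was 3 in WT against sham, and 0 with normexp, quantile normalization, probes above background on all arrays, the replicate block, the compared groups alone with WT replicate 1 left out, or the slide with both groups alone, 1 with median centring and 7 with array weights. With the mean of a gene's probes it was 4 in KO against sham and 4 in WT against sham. Leaving out 1 array at a time gave 0 called features in KO against WT, 0 to 8 in KO against sham and 0 to 6 in WT against sham, the highest being those without WT replicate 1. With array weights signs changed, in KO against WT, for Cplx2 0.059, Rims1 0.20, Shank2 0.41 and Shank3 0.028, in KO against sham, Stx1a 0.0081, and in WT against sham, Bsn -0.60, Camk2a -0.75, Camk2b -0.83, Cplx1 -0.62, Dlgap1 -0.55, Homer1 -0.53, Nrgn -1.10, Nrxn3 -0.66, Pclo -0.93, Rab3a -0.65, Shank1 -0.45, Snap25 -0.48, Sncb -0.44, Sv2b -0.66, Syn1 -0.75, Syn2 -1.18, Syp -0.43, Syt1 -0.36, Syt4 -0.32, Syt5 -0.82, Unc13a -0.55 and Vamp2 -0.39. With the compared groups alone and WT replicate 1 left out they changed, in KO against WT, for Cplx2 0.079, Dlg2 0.090, Dlg4 0.054, Homer1 0.018, Nrgn 0.073, Rims1 0.21, Shank1 0.028, Shank2 0.77, Shank3 0.053, Syn2 0.028, Unc13a 0.088 and Vamp1 0.18, and in WT against sham, Bsn -0.69, Camk2a -0.93, Camk2b -0.94, Cplx1 -0.66, Dlgap1 -0.64, Homer1 -0.60, Nrgn -1.19, Nrxn3 -0.68, Pclo -1.0, Rab3a -0.65, Shank1 -0.52, Shank3 -0.023, Snap25 -0.54, Sncb -0.49, Sv2b -0.81, Syn1 -0.80, Syn2 -1.22, Syp -0.46, Syt1 -0.40, Syt4 -0.27, Syt5 -0.85, Unc13a -0.63 and Vamp2 -0.41. Median centring gave Dlg4 0.040, Nlgn1 0.028 and Sv2a 0.030 in WT against sham and Stx1a 0.014 in KO against sham, normexp gave Dlg4 0.025, Shank2 0.31 and Syn2 -0.045 and Shank2 0.17, and quantile normalization gave Syn2 -0.0081 and Cplx2 -0.025. The mean of a gene's probes gave Pclo -0.0073 and Syn2 -0.070 in WT against sham and Cplx2 -0.046 in KO against sham, and the own probe of Cplx2, an alternative chosen after seeing the data, gave -0.94 in KO against sham. Replicate numbers 1 to 3 recur in KO and WT. Deviations from the group means correlated between same-numbered arrays with r = -0.38, -0.56 and 0.35, and not every array correlated best with its own number. The outlying WT replicate 1 is part of the WT mean, so WT replicates 2 and 3 both deviate against it. These correlations therefore cannot decide whether same-numbered samples belong together. With the replicate block signs changed for Homer1 0.39, Nrgn 0.31, Shank1 0.20, Shank2 0.18, Snap25 0.076, Stx1a 0.86, Syp 0.084, Syt4 0.26, Unc13a 0.46 and Vamp2 0.073 in KO against sham and Dlg2 0.67, Dlg4 0.52, Nlgn1 0.68, Shank2 0.37, Sv2a 0.68 and Vamp1 0.37 in WT against sham, and none in KO against WT, where 0 features were called. Leaving out 1 array at a time, members that changed sign ranged, in KO against WT, as Cplx2 -0.29 to 0.079, Dlg2 -1.79 to 0.090, Dlg4 -1.40 to 0.054, Homer1 -1.92 to 0.018, Nrgn -2.40 to 0.073, Rims1 -0.82 to 0.21, Shank1 -1.23 to 0.028, Shank2 -0.86 to 0.77, Shank3 -1.02 to 0.053, Syn2 -1.91 to 0.028, Unc13a -1.79 to 0.088 and Vamp1 -1.33 to 0.18, in KO against sham, Stx1a -0.30 to 0.070, and in WT against sham, Bsn -0.69 to 1.27, Camk2a -0.93 to 1.25, Camk2b -0.94 to 0.81, Cplx1 -0.66 to 0.72, Dlg2 -1.24 to 0.39, Dlg4 -0.96 to 0.47, Dlgap1 -0.64 to 0.74, Homer1 -0.60 to 1.33, Nlgn1 -1.13 to 0.58, Nrgn -1.19 to 1.28, Nrxn3 -0.68 to 0.57, Pclo -1.0 to 0.93, Rab3a -0.65 to 0.58, Shank1 -0.52 to 0.73, Shank2 -1.32 to 0.31, Shank3 -0.023 to 1.05, Snap25 -0.54 to 0.91, Sncb -0.49 to 0.97, Sv2a -0.76 to 0.45, Sv2b -0.81 to 1.63, Syn1 -0.80 to 0.63, Syn2 -1.22 to 0.62, Syp -0.46 to 0.88, Syt1 -0.40 to 0.68, Syt4 -0.27 to 0.79, Syt5 -0.85 to 0.74, Unc13a -0.63 to 1.25, Vamp1 -1.50 to 0.010 and Vamp2 -0.41 to 0.78. Shank2 values without WT replicate 1 rest on background readings in WT. The cause was not tested. The number of arrays limits the precision.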
